A study of Danio rerio with 10 samples.

Results

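The 10 genes described here mark endothelial cells, the cells that line blood and lymph vessels, and were measured in testes of adult male zebrafish (Danio rerio). They are plvapa, plvapb, cdh5, kdrl, flt4, tie1, tek, s1pr1, lyve1a and egfl7. Each was found by its exact symbol among the 20806 probes that the platform annotation pairs with 1 gene symbol, which gave 11 probes, and where a gene had several, the brightest by mean over the arrays stood for it. All 10 genes were measured, out of 19260 genes in the whole table. The testes came from wildtype AB fish of 1 year of age. In the TCDD group of 5 samples, males had been kept for 1 h in water with 50 pg/ml of TCDD, a dioxin that binds the aryl hydrocarbon receptor, at 3 and again at 7 weeks post fertilization. In the DMSO group of 5 samples, males had received the vehicle on the same schedule. RNA from each sample was hybridised to 1 Affymetrix whole-transcript array. The labels number the samples as biological replicates and do not say whether each came from 1 fish, so that p-values measure the spread between these samples.

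Endothelial cells grow towards vascular endothelial growth factor (VEGF), which they sense through tyrosine kinase receptors, and they are held to each other by a cadherin of their own. Angiopoietins acting on the Tie receptors, and sphingosine 1-phosphate acting on its receptors, steady the vessel wall and its barrier. Where capillaries are permeable, as in endocrine tissue and gut, Plvap proteins form thin diaphragms across the pores and caveolae of the endothelium. In the testis the vessels run outside the tubules, beside the hormone-producing Leydig cells. Whole testes were measured, so fewer endothelial cells and less RNA per endothelial cell cannot be told apart.

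The DMSO 1 array stood apart from the rest, with a mean correlation of 0.918 to the other arrays over all probes, against 0.952 to 0.961 for the other 9. Its mean over 21 genes of pancreas and intestine was 11.9 on the log2 scale, TCDD 2 followed at 11.2, and the other 8 arrays lay between 7.57 and 9.57. Testis markers were present in every array, with the germ cell gene ddx4 between 10.6 and 12.3. The Leydig cell hormone gene insl3 was at 7.09 in DMSO 1 and at 11.1 or more elsewhere, and 14 genes of spermatocytes and spermatids averaged 7.60 there against 9.59 to 10.4 elsewhere. Results that rest on DMSO 1 are therefore given with and without it.

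None of the 10 endothelial genes passed the test across all genes between TCDD and DMSO testes. 8 of the 10 lay higher in TCDD, led by plvapa at 1.68-fold, and flt4 and lyve1a lay lower. The median difference, TCDD minus DMSO on the log2 scale, was 0.12, against 0.018 over all genes, and 54.6% of all genes lay above 0. At an adjusted p under 0.05 in limma, a linear model with moderated variances fitted over all genes, 0 of the 10 were called, as were 0% of all genes. At an unadjusted p under 0.05 it was again 0 of 10, while 0.8% of all genes passed in the higher direction and 1.68% in the lower. For 0 of 10 the groups did not overlap (0.493% of all genes in either direction). All 10 confidence intervals included 0.

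**Figure D1:**
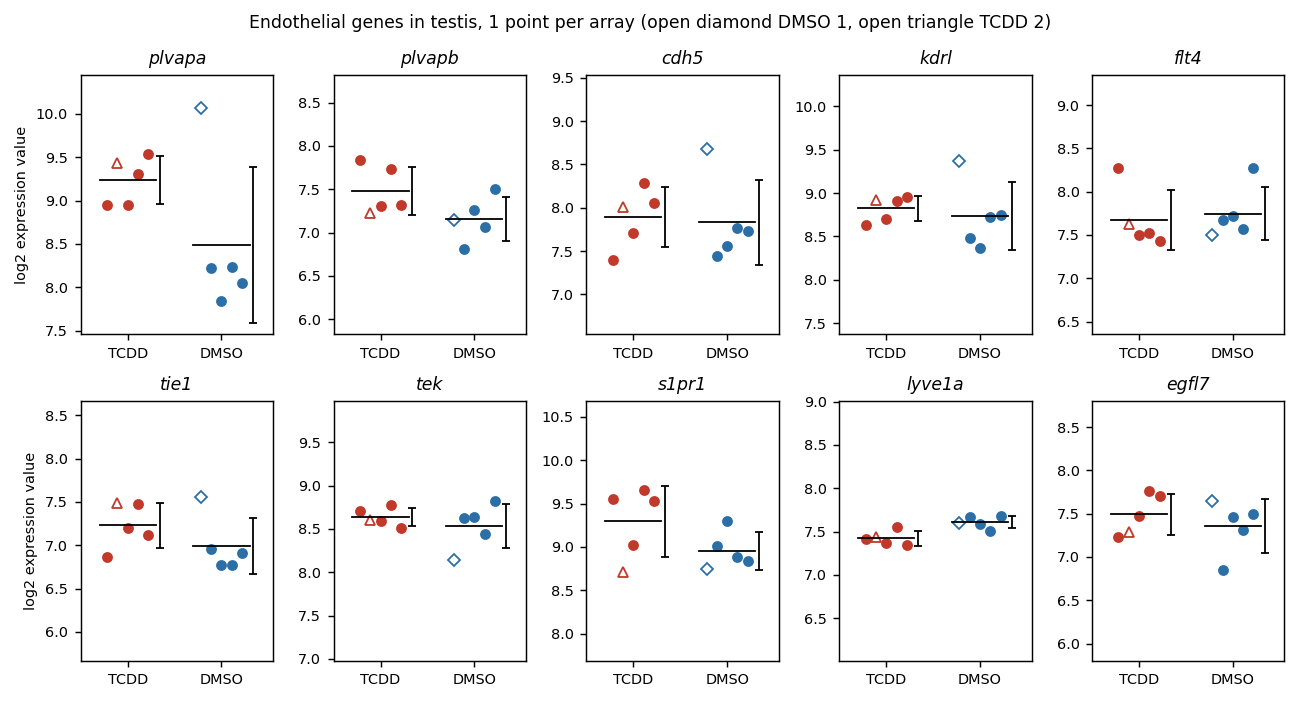
Log2 expression values (y axis) of the 10 endothelial genes in TCDD and DMSO testes, 1 point per array, with the group mean as a line and the SD as a bar (n = 5 each); every panel spans the same height. The DMSO 1 point (open diamond) is the highest of its group for plvapa (10.07), cdh5, kdrl, tie1 and egfl7. It is the lowest of its group for tek (8.14), s1pr1 (8.74) and flt4 (7.50).

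plvapa and plvapb encode the proteins of endothelial diaphragms. plvapa (probe 13080890) was at 8.95, 9.43, 8.94, 9.31 and 9.54 in TCDD 1 to 5 and at 10.07, 8.22, 7.84, 8.23 and 8.05 in DMSO 1 to 5. Every TCDD array thus lay above DMSO 2 to 5 and below DMSO 1, the array rich in gut transcripts. TCDD testes averaged 9.23 ± 0.28 and DMSO testes 8.48 ± 0.90 (SD, n = 5 each). The difference was 0.75 (95% CI -0.072 to 1.57; exact two-sided permutation p = 0.111, limma adjusted p = 1.00). Without DMSO 1 the mean of the remaining DMSO arrays was 8.09 ± 0.18 (SD, n = 4) and the difference 1.15 (95% CI 0.797 to 1.498). In that comparison the groups did not overlap, which held for 1.32% of all genes in the higher direction, and plvapa had the smallest p of all 19260 genes, yet it did not pass after adjustment (limma adjusted p = 0.393). Over all 10 arrays it ranked 721 by p. Without DMSO 1, 21 of 21 pancreas and intestine genes also lay higher in TCDD (median difference 1.24). So did 16 of 16 hepatocyte genes (median 1.00), against 47.4% of all genes. The part of these tissues in the plvapa value was not tested. Without both DMSO 1 and TCDD 2 the plvapa difference was 1.098 (95% CI 0.73 to 1.47, limma adjusted p = 0.546).

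plvapb (probe 12977682) was at 7.84, 7.23, 7.30, 7.73 and 7.31 in TCDD testes and at 7.14, 6.81, 7.26, 7.07 and 7.50 in DMSO testes. Its groups overlapped through DMSO 5 and DMSO 3, and unlike plvapa it was not raised in DMSO 1. The difference was 0.33 (95% CI -0.044 to 0.70, limma adjusted p = 1.00), with 5 of 5 TCDD arrays above the DMSO mean, and it was 0.32 without DMSO 1. The paralogs did not follow each other over the arrays (Pearson r = 0.18 over 10 arrays, 0.37 without DMSO 1).

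cdh5 encodes vascular endothelial cadherin, the adhesion molecule of endothelial junctions. Its brighter probe (13230607) was at 7.395, 8.01, 7.71, 8.29 and 8.05 in TCDD 1 to 5 and at 8.68, 7.45, 7.55, 7.76 and 7.73 in DMSO 1 to 5. TCDD 1 was the lowest of all arrays and DMSO 1 the highest, so the ranges of the groups lay across each other. The difference was 0.055 (95% CI -0.49 to 0.60), and 0.27 (95% CI -0.12 to 0.66) without DMSO 1. The second cdh5 probe (13230621) was dimmer and differed by 0.18 (95% CI -0.44 to 0.80), in the same direction.

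kdrl and flt4 encode receptors of the VEGF family. kdrl, through which fish endothelium answers Vegfa, was at 8.63, 8.92, 8.70, 8.91 and 8.96 in TCDD and at 9.37, 8.48, 8.37, 8.72 and 8.75 in DMSO. The TCDD arrays were closely spaced (SD 0.15) and lay inside the DMSO range. The difference was 0.088 (95% CI -0.31 to 0.49), and 0.25 (95% CI -0.034 to 0.53) without DMSO 1. flt4 encodes the VEGF-C receptor of lymphatic and venous endothelium. It was at 8.28, 7.63, 7.50, 7.52 and 7.43 in TCDD and at 7.50, 7.67, 7.72, 7.56 and 8.28 in DMSO. Each group held 1 array far above its other 4, TCDD 1 and DMSO 5, and the difference was -0.073 (95% CI -0.51 to 0.36).

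tie1 and tek encode the Tie receptors, of which tek binds angiopoietins directly and tie1 acts beside it. By mean level tie1 was the dimmest of the 10 genes, at percentile 56.9 of all probes. Only 4 of the 10, plvapa, s1pr1, kdrl and tek, lay above the median gene. tie1 was at 6.87, 7.49, 7.20, 7.48 and 7.12 in TCDD and at 7.56, 6.96, 6.77, 6.77 and 6.91 in DMSO. As with plvapa, DMSO 1 exceeded all TCDD arrays, while 4 of 5 TCDD arrays exceeded DMSO 2 to 5. The difference was 0.24 (95% CI -0.17 to 0.64). It became 0.38 (95% CI 0.058 to 0.69, limma adjusted p = 0.716) without DMSO 1. With plvapa, tie1 made up the 2 of 10 genes at an unadjusted p under 0.05 in that comparison, against 3.66% of all genes in the higher direction. Without both DMSO 1 and TCDD 2 the tie1 difference was 0.31 and its interval included 0 (95% CI -0.0051 to 0.63, limma adjusted p = 0.805). tek had the smallest range over the arrays of the 4 receptor kinases (0.68) and was at 8.70, 8.60, 8.59, 8.78 and 8.51 in TCDD and at 8.14, 8.62, 8.64, 8.44 and 8.82 in DMSO. DMSO 1 was here the lowest array. The difference of 0.10 (95% CI -0.20 to 0.41) became 0.0053 (95% CI -0.25 to 0.26) without it.

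s1pr1 encodes a sphingosine 1-phosphate receptor that tightens the endothelial barrier, and which lymphocytes also use. It was at 9.56, 8.71, 9.02, 9.66 and 9.53 in TCDD and at 8.74, 9.01, 9.30, 8.88 and 8.84 in DMSO. TCDD 1, 4 and 5 lay above every DMSO array and TCDD 2 below all of them. The difference was 0.34 (95% CI -0.094 to 0.78, limma adjusted p = 1.00). It was 0.49 without TCDD 2 and 0.25 without TCDD 4, with limma adjusted p of 0.701 to 1.00 over all alternatives.

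lyve1a encodes a receptor for the matrix sugar hyaluronan, and in mammals its counterpart marks lymphatic endothelium and some macrophages. It was at 7.41, 7.44, 7.37, 7.55 and 7.34 in TCDD and at 7.60, 7.67, 7.59, 7.50 and 7.68 in DMSO. The groups met only at TCDD 4 and DMSO 4, and 4 of 5 TCDD arrays lay below every DMSO array. The whole range over 10 arrays was 0.34, the narrowest of the 10 genes. TCDD testes averaged 7.42 ± 0.083 and DMSO testes 7.61 ± 0.071 (SD, n = 5 each). The difference was -0.19 (95% CI -0.40 to 0.020; exact two-sided permutation p = 0.0159, limma adjusted p = 1.00). The exact test uses the spread of this gene alone, whereas limma draws that spread towards that of other genes and does not put the interval off 0. The exact p was not adjusted for the 10 genes tested, and for the others it was 0.111 (plvapa and plvapb) to 0.849 (cdh5). The related gene lyve1b differed by 0.054, in the other direction. Without TCDD 4 or without DMSO 4 the groups did not overlap, as for 0.665% and 0.903% of all genes in the lower direction. Because these are the arrays at which the groups met, leaving out either one separates them by construction. The shares are for that 1 fixed array left out, not for whichever array would separate a gene. lyve1a was not raised in DMSO 1 (7.60), and its difference was -0.19 without that array as well.

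egfl7 encodes a small protein secreted by endothelial cells that takes part in forming vessel tubes. It was at 7.24, 7.29, 7.47, 7.76 and 7.71 in TCDD and at 7.65, 6.85, 7.46, 7.32 and 7.50 in DMSO. The groups overlapped over most of their ranges, and DMSO 2 was the lowest array. The difference was 0.14 (95% CI -0.24 to 0.52), and 0.011 without DMSO 2.

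**Figure D2:**
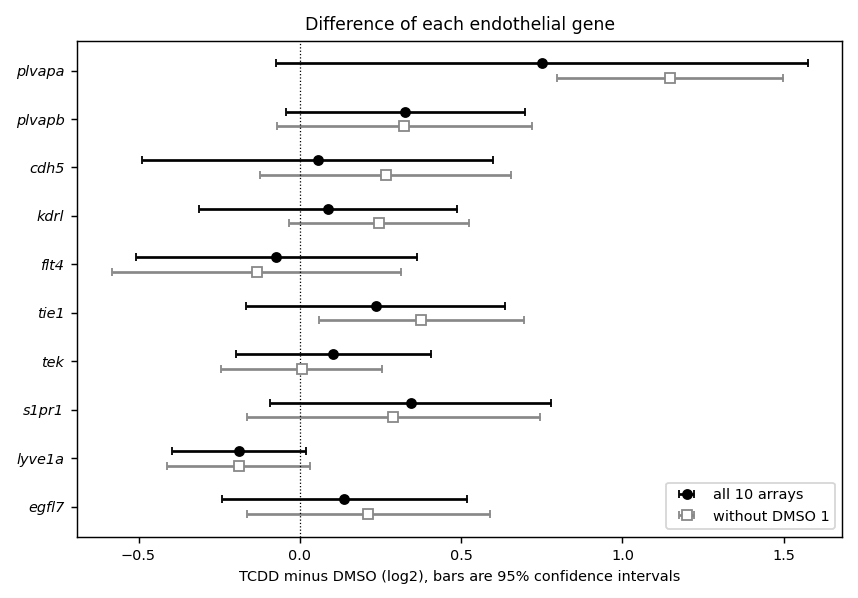
TCDD minus DMSO on the log2 scale (x axis) for each endothelial gene, over all 10 arrays (filled circles) and without DMSO 1 (open squares), with 95% confidence intervals. The plvapa interval, which includes 0 over all arrays, runs from 0.797 to 1.498 without DMSO 1, and the tie1 interval also leaves 0.

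The 10 genes did not vary as a single block over the arrays. Of their 45 pairs, 26 had a positive Pearson r, with a median of 0.052, and 30 were positive without DMSO 1, with a median of 0.21. A subset did move together: cdh5, kdrl, tie1 and plvapa formed all 5 pairs that passed a permutation test of r after Benjamini-Hochberg adjustment over the 45 pairs, of which 1 also passed on ranks. The strongest was cdh5 with kdrl (r = 0.92 over 10 arrays, permutation p = 0.00016, adjusted 0.0072; Spearman rho = 0.90, permutation p = 0.0009, adjusted 0.0405). Its r was 0.85 without DMSO 1 and TCDD 4, the arrays farthest from the cdh5 median, and 0.93 after centring each group on its own mean. plvapa with kdrl followed (r = 0.87, adjusted permutation p = 0.0128; rho = 0.83, adjusted 0.0965), with r = 0.72 without DMSO 1 and DMSO 3. Without DMSO 1 alone, r was 0.84 for cdh5 with kdrl and 0.81 for plvapa with kdrl. With each group also centred on its own mean, these were 0.79 and 0.76. The share of pairs among all genes that would pass was not computed, so the 5 of 45 has no background beside it. Genes outside the 10 reached higher r, such as sesn1 with cdh5 (0.97) and aak1a with plvapa (0.93).

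The other 3 pairs that passed on r all held tie1, and none of them passed on ranks. plvapa and tie1 had r = 0.85 (adjusted permutation p = 0.0322) and rho = 0.75 (adjusted 0.161), cdh5 and tie1 had r = 0.83 (0.0322) and rho = 0.65 (0.186), and kdrl and tie1 had r = 0.79 (0.0322) and rho = 0.70 (0.173). Without DMSO 1 these r were 0.79, 0.77 and 0.71, and without the 2 arrays farthest from the median 0.75, 0.64 and 0.65. Without DMSO 1 and with each group centred on its own mean, they were lower, at 0.49, 0.69 and 0.46. plvapa with cdh5 just missed the threshold (r = 0.78, adjusted permutation p = 0.0502; rho = 0.70, adjusted 0.173), with r = 0.61 on the remaining 8 arrays. Its r was 0.66 without DMSO 1 and with each group centred.

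flt4, tek, s1pr1, plvapb and lyve1a stood outside that subset. lyve1a had r = 0.018 with cdh5, -0.13 with kdrl and -0.13 with tie1. With plvapa its r was -0.44 (adjusted permutation p = 0.439), -0.74 without DMSO 1, and -0.025 over all arrays with each group centred on its own mean. egfl7 was in no pair that passed, but had r = 0.69 with cdh5 (adjusted permutation p = 0.181) and rho = 0.76 (adjusted 0.161). That r was 0.72 without DMSO 1, and 0.65 with each group also centred on its own mean. The last measure was 0.49 for plvapa with tie1 and 0.46 for kdrl with tie1, so egfl7 was not sharply set off from the subset. flt4 and tek, both receptors of endothelium, had negative r with cdh5 (-0.53 and -0.57) and with kdrl (-0.35 and -0.61), of which those of tek were 0.023 and -0.034 without DMSO 1. plvapb had its highest r with s1pr1 (0.62, adjusted permutation p = 0.326; rho = 0.62, adjusted 0.186). Arrays of one group shared their treatment and all arrays shared the same probe set, and these coefficients describe the 10 arrays.

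**Figure D3:**
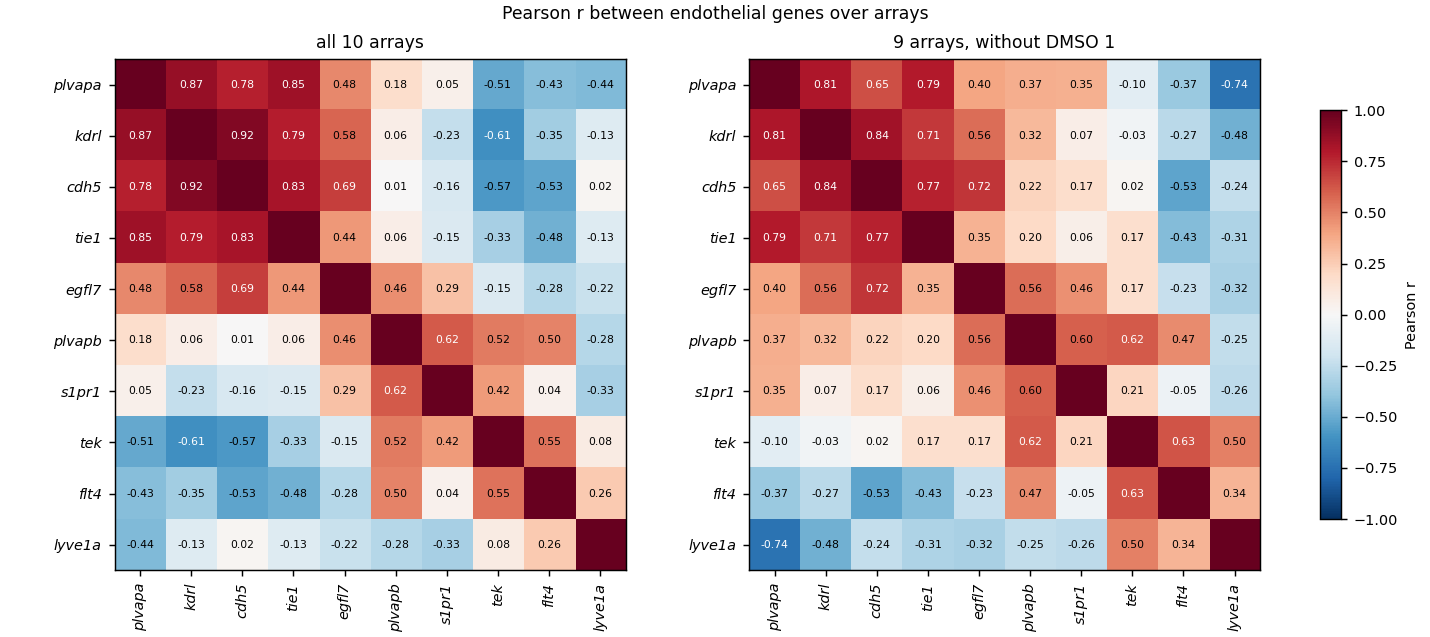
Pearson r between each pair of the 10 endothelial genes over all 10 arrays (left) and over 9 arrays without DMSO 1 (right), coloured from -1 to 1. plvapa, kdrl, cdh5 and tie1 form a positive block in both panels (0.78 to 0.92 and 0.65 to 0.84), while the negative values of tek with kdrl and cdh5 are seen over all arrays and are near 0 on the right.

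Markers of some other tissues and cell types moved with cdh5, kdrl or tie1 of that subset, and their part in the values was not tested. The pancreas and intestine list was at 8.38, 11.2, 9.57, 9.44 and 7.57 in TCDD 1 to 5 and at 11.9, 7.75, 8.16, 7.94 and 7.86 in DMSO 1 to 5, so DMSO 1 was high both in gut transcripts and in plvapa, cdh5, kdrl and tie1. The hepatocyte list of 16 genes was highest in TCDD 5, at 10.9, while TCDD 1 to 4 lay at 7.93 to 9.09 and the DMSO arrays at 7.32 to 8.15. TCDD 5, the highest of the TCDD arrays for plvapa (9.54), had the lowest gut and the highest hepatocyte mean of all 10 arrays. Over the 10 arrays plvapa had r = 0.71 with the gut list (adjusted permutation p = 0.100) and 0.55 with the hepatocyte list (adjusted 0.268). Spearman rho was 0.44 with the gut list (adjusted permutation p = 0.426) and 0.65 with the hepatocyte list (adjusted 0.232). Without DMSO 1 the r with these lists were 0.53 and 0.71. s1pr1 had r = 0.80 with the Sertoli cell list (adjusted permutation p = 0.0721; rho = 0.89, adjusted 0.0535). With the Leydig cell list its r was 0.70 (adjusted permutation p = 0.0761; rho = 0.87, adjusted 0.0556). Without DMSO 1 the r of s1pr1 were 0.76 and 0.81. Both lists had higher means in TCDD, at 9.70 against 9.27 and 9.51 against 8.88, and their part in the s1pr1 difference was not tested.

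Of 100 relations between the 10 genes and 10 marker lists, 7 passed a permutation test of r after adjustment over the 100, and 1 passed on ranks. Mural cells, the pericytes and smooth muscle around vessels, gave 3 of them, with cdh5 (r = 0.92, adjusted permutation p = 0.012; rho = 0.77, adjusted 0.103), kdrl (r = 0.85, adjusted 0.0366; rho = 0.81, adjusted 0.0906) and tie1 (r = 0.81, adjusted 0.0366; rho = 0.79, adjusted 0.0906). Without DMSO 1 and TCDD 4 these r were 0.70, 0.72 and 0.58. The leukocyte list followed tie1 (r = 0.89, adjusted permutation p = 0.012; rho = 0.85, adjusted 0.0556) and kdrl (r = 0.81, adjusted 0.0366; rho = 0.83, adjusted 0.076), with r = 0.83 and 0.72 without DMSO 1 and TCDD 2. The pancreas and intestine list followed tie1 as well (r = 0.85, adjusted permutation p = 0.0366; rho = 0.61, adjusted 0.247; r = 0.67 without DMSO 1 and TCDD 2). The relation that passed on ranks was inverse: tie1 was lower in arrays where spermatocyte and spermatid genes were higher (r = -0.72, adjusted permutation p = 0.0187; rho = -0.96, adjusted 0.006). That r was -0.79 without DMSO 1 and TCDD 2. The share of all genes that would pass with these lists was not computed.

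**Figure D4:**
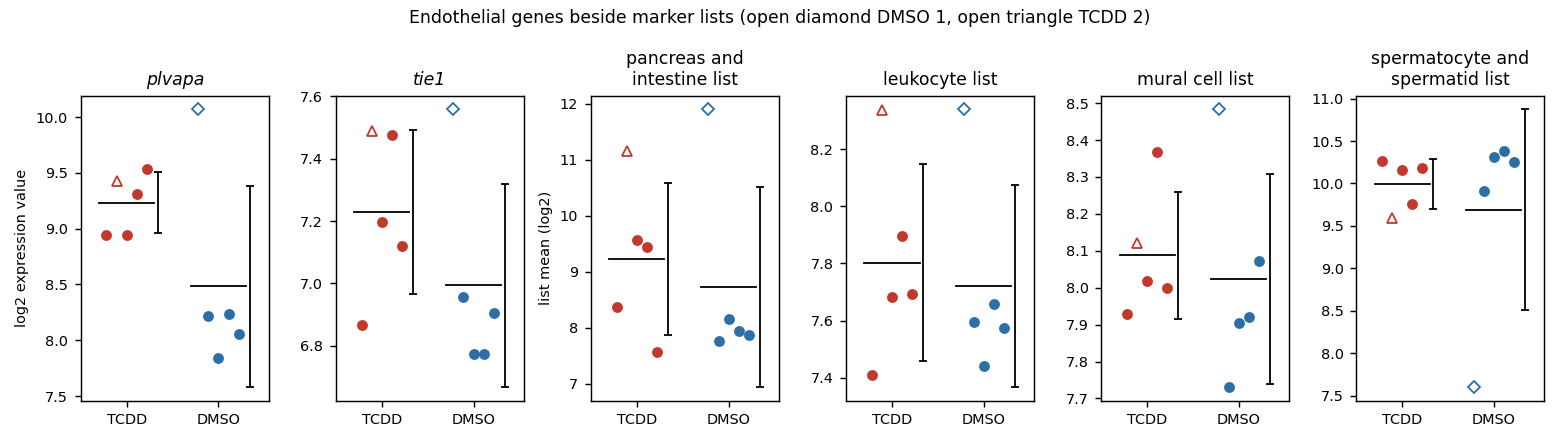
Log2 values of plvapa and tie1 and mean log2 levels of 4 marker lists (y axes, each with its own scale) in TCDD and DMSO testes, 1 point per array, with group mean and SD (n = 5 each). DMSO 1 (open diamond) is high for both genes and for the gut, leukocyte and mural lists and low for the spermatocyte and spermatid list (7.60), and TCDD 2 (open triangle) is high for the gut and leukocyte lists.

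Other genes of vessels were followed through 9 lists that held 134 genes in all, of which 113 were measured. In these lists 83 of 113 genes lay above 0, with a median of 0.093, against 54.6% of all genes and a median of 0.018. This was not particular to vessel genes. Leydig cell genes lay above 0 in 10 of 10 (median 0.68), Sertoli cell genes in 11 of 12 (0.39) and leukocyte genes in 14 of 17 (0.17). Hepatocyte genes did so in 16 of 16 (1.09) and pancreas and intestine genes in 20 of 21 (0.53). Skeletal muscle genes went the other way, with 3 of 22 above 0 (-0.43). At an unadjusted p under 0.05 the 113 genes held 0 higher and 1 lower, against 0.8% and 1.68% of all genes. The lower gene was cav3, a caveolin of muscle, which averaged 6.44 ± 0.19 in TCDD testes and 6.79 ± 0.25 in DMSO testes (SD, n = 5 each). It differed by -0.35 (95% CI -0.67 to -0.018; limma adjusted p = 1.00). The skeletal muscle list was lower as well, with a mean of 6.73 to 6.95 in TCDD and 6.83 to 7.71 in DMSO, and its part in the cav3 value was not tested. 0 of 113 passed the adjusted threshold. By mean level over the arrays cav3 was dim, at percentile 15.4 of all genes. Of the genes named below, heyl, angpt2b, ndufa4l2a and s1pr4 were also dim, at percentiles 10.1, 19.3, 23.7 and 24.0.

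Among ligands and receptors, 9 of 11 VEGF genes lay above 0, with a median of 0.14. flt1, a VEGF receptor, was at 7.49 ± 0.32 in TCDD and 7.15 ± 0.38 in DMSO, and nrp1b, a neuropilin co-receptor, at 7.87 ± 0.36 and 7.52 ± 0.40 (SD, n = 5 each). Their differences were 0.34 (95% CI -0.12 to 0.80) and 0.35 (95% CI -0.14 to 0.84). For the angiopoietin system, 4 of 5 genes lay above 0 (median 0.22), with ptprb, an endothelial phosphatase acting on Tie receptors, at 0.35 (95% CI -0.16 to 0.85) and the ligand gene angpt2b at 0.30 (95% CI -0.28 to 0.87). Without DMSO 1 that list had 3 of 5 genes above 0 and a median of 0.073. Of 12 genes of the sphingosine 1-phosphate system 9 lay above 0 (median 0.12). There the receptor s1pr2 was at 9.56 ± 0.35 in TCDD and 9.11 ± 0.39 in DMSO, a difference of 0.45 (95% CI -0.033 to 0.93), and s1pr4, a receptor of blood cells, differed by -0.24 (95% CI -0.51 to 0.039).

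The remaining vascular lists gave medians of 0.061 to 0.13 with no gene called after adjustment. Junction and surface genes lay above 0 in 13 of 16, with cd34, a surface sialomucin, at 0.38 (95% CI -0.036 to 0.80) and jam2a, a junctional adhesion molecule, at 0.45 (95% CI -0.15 to 1.06). Endothelial transcription factors did so in 13 of 15 (median 0.13), with klf2b, a factor induced by blood flow, at 0.33 (95% CI -0.035 to 0.69) and elk3 at 0.20 (95% CI -0.13 to 0.53). In caveolae, 6 of 10 lay above 0 (median 0.067), with ehd2b at 0.19 (95% CI -0.41 to 0.79), which turned to -0.033 without TCDD 4. Notch and arteriovenous genes numbered 9 of 12 above 0 (median 0.064), with the ligand jag1b at 0.17 (95% CI -0.12 to 0.45) and the target heyl at -0.25 (95% CI -0.69 to 0.19). Without DMSO 1 these became 6 of 12 and a median of 0.014, and heyl differed by -0.11. The lymphatic and scavenger list had 5 of 8 above 0, where osr2 differed by 0.71 (95% CI -0.030 to 1.45) and angptl4 by 0.64 (95% CI -0.21 to 1.497). Among the other endothelial genes 15 of 24 lay above 0, with igfbp7 at 0.45 (95% CI -0.19 to 1.09) and rasgrp3 at 0.43 (95% CI -0.11 to 0.96). Mural cell genes lay above 0 in 15 of 21 (median 0.098), with mylka, a myosin light chain kinase, at 0.18 (95% CI -0.23 to 0.60) and ndufa4l2a at 0.22 (95% CI -0.18 to 0.62). Without DMSO 1 the medians were higher for the caveolae (0.13), the other endothelial genes (0.14, with 19 of 24 above 0) and the mural cell genes (0.18, with 18 of 21).

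**Figure D5:**
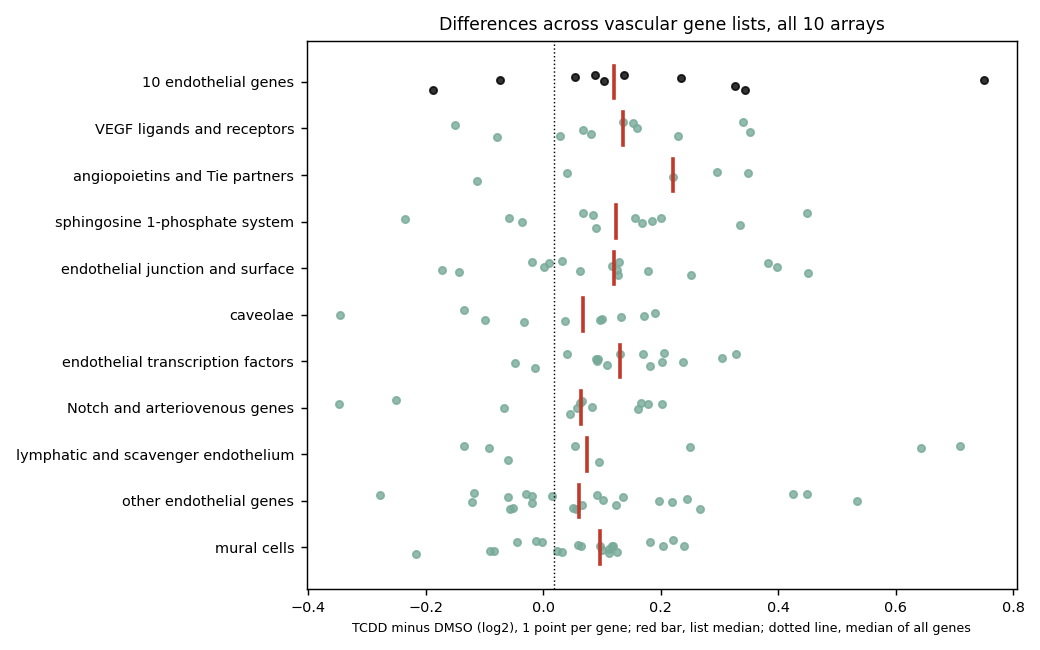
TCDD minus DMSO on the log2 scale (x axis) for each measured gene of the 10 endothelial genes and 10 vascular lists over all 10 arrays, with the list median in red and the median of all 19260 genes (0.018) dotted. plvapa, at 0.75, is the rightmost point, and the list medians lie between 0.061 and 0.22.

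Without DMSO 1 the 113 genes held 7 higher and 1 lower at an unadjusted p under 0.05, against 3.66% and 2.99% of all genes, and their median was 0.13 with 82 above 0 (47.4% of all genes). The groups did not overlap, with TCDD higher, for 3 of the 113 (1.32% of all genes). These were flt1 and cd34, with differences of 0.50 (95% CI 0.12 to 0.87) and 0.55 (95% CI 0.28 to 0.83), and aqp8a.1, an aquaporin gene. aqp8a.1 was at 7.56, 10.9, 7.27, 7.48 and 7.84 in TCDD and at 10.04, 7.22, 7.096, 7.03 and 7.01 in DMSO, with its highest values in TCDD 2 and DMSO 1, the arrays richest in gut transcripts. cd34 was at 8.04, 7.65, 7.88, 7.97 and 8.13 in TCDD and at 8.24, 7.21, 7.34, 7.51 and 7.46 in DMSO, so that, like plvapa, it was highest in DMSO 1 and lower in DMSO 2 to 5 than in any TCDD array. Of the 7 genes higher at an unadjusted p under 0.05, the others were nrp1b, clec14a, ctnnd1, notch3 and osr2. The lower one was hey1, a Notch target, with a difference of -0.71 (95% CI -1.33 to -0.094). All 8 had a limma adjusted p of 0.716.

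The genes whose values followed those of an endothelial gene most closely were sought among 9626 genes brighter than the median gene. For cdh5 these were sesn1, a stress-response gene (r = 0.97 over 10 arrays), si:ch1073-440b2.1 (0.96) and desmb, a desmin gene of muscle filaments (0.96). For plvapa they were the kinase gene aak1a (r = 0.93) and the pyruvate dehydrogenase kinase genes pdk2a (0.92) and pdk4 (0.92), all of them highest in DMSO 1. pdk2a was at 8.15, 9.62, 8.53, 9.35 and 8.98 in TCDD and at 10.1, 7.66, 7.92, 7.74 and 7.83 in DMSO, a pattern much like that of plvapa. s1pr1 was followed by baiap2b (r = 0.95), abhd17b (0.94) and the claudin gene cldn7b (0.94), and lyve1a less closely by si:dkeyp-4c7.3 (0.87), fxr2 (0.86) and LOC796293 (0.80). Without DMSO 1 these r lay at 0.79 or above. Being the highest of 9626, they are high by construction.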

How the data were processed

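The authors deposited 1 processed value per probe and array, taken here as log2 because values ran from 1.25 to 14.6; how they corrected background, normalized and summarized the signal is not given in the sources. All 10 columns were matched to samples by accession, and 0 were left unassigned. Of 75212 probes 20806 had 1 gene symbol, 855 had several and 53551 none, and the brightest probe stood for each of 19260 genes. Symbols follow the platform annotation, updated through Entrez identifiers where these matched (20323 probes, 1 symbol changed).

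The test was a limma 3.58.1 model, run in R 4.3.3 (group as the 1 factor, moderated variances, Benjamini-Hochberg adjustment over all genes, 95% confidence intervals), checked on simulated data. Single genes were also compared by an exact two-sided permutation test over all 252 arrangements, whose smallest p is 0.00794. Correlations used 100000 permutations. For arrays, their number limits the precision: the median standard error of a difference was 0.18. Levels of different probes were compared to choose the brightest probe of a gene and the genes above the median. They were also ranked by percentile of mean level, to say which genes were dim, and averaged over the genes of each marker list. Otherwise they were set against each other only within each array, for plvapa relative to cdh5, kdrl and tie1 and relative to plvapb.

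The endothelial genes and marker lists were chosen with earlier results of these data known. Named besides the 10 genes are up to 2 measured genes with the smallest p per vascular list, the 3 genes most alike plvapa, s1pr1, cdh5 and lyve1a, and example genes of other tissues, of which fabp10a and hbaa1 were not analysed here. Genes at an unadjusted p under 0.05 without DMSO 1, lyve1b, and cd34 and aqp8a.1 values by array, were named after their values were seen. Alternatives were median centring and quantile normalization, a replicate block, weights per array, robust variances with a trend, genes above the median alone, the mean of a gene's probes, and arrays left out.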

Additional observations from a re-analysis of the deposited data

Results flagged for a closer look

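Within each group of 5 arrays, an array whose gap to its neighbour was large against the range of its group was marked for each of the 10 genes. 5 of the 20 groups were marked, where chance marks about 1 in 20. The checks shared the same 10 arrays and genes that co-varied, so they were not independent and that rate is no test of the count. 3 of the marks fell on DMSO 1: plvapa at 10.07 against 7.84 to 8.23 in DMSO 2 to 5, cdh5 at 8.68 against 7.45 to 7.76, and tie1 at 7.56 against 6.77 to 6.96. Beside these values, DMSO 1 had the highest pancreas and intestine mean of all arrays (11.9) and the lowest spermatocyte and spermatid mean (7.60), whose part in them was not tested. The other marks were on flt4, which was at 8.28 in TCDD 1 against 7.43 to 7.63 in TCDD 2 to 5, and at 8.28 in DMSO 5 against 7.50 to 7.72 in DMSO 1 to 4.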

How the results depend on the processing

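No endothelial gene passed the adjusted threshold under any of the alternatives, with limma adjusted p of 0.393 (plvapa without DMSO 1) to 1.00. plvapa, plvapb, s1pr1, lyve1a, tie1, tek and egfl7 kept their direction throughout, plvapa from 0.59 without DMSO 3 to 1.15 without DMSO 1. cdh5 changed sign without TCDD 4 (-0.044), DMSO 2 (-0.042) or DMSO 3 (-0.016), kdrl without DMSO 3 (-0.0053) and flt4 without DMSO 5 (0.059). Their ranges with single arrays left out were -0.044 to 0.27, -0.0053 to 0.25 and -0.22 to 0.059. The median over the 10 genes was 0.070 to 0.26 with single arrays left out and 0.11 to 0.25 otherwise. Of the 10, 0 to 2 had an unadjusted p under 0.05 with single arrays left out. These were plvapa and tie1 without DMSO 1 (1280 of 19260 genes in either direction), s1pr1 without TCDD 2 (598) and plvapb without DMSO 5 (393). The count was 3 with array weights (plvapa, tie1 and lyve1a, beside 1400 of 19260 genes). It was 1 with median centring (plvapa, beside 453 genes). It was 2 (plvapa and s1pr1, but not tie1) without DMSO 1 and TCDD 2, beside 1190 genes. Groups did not overlap for 0 to 1 of the 10 with single arrays left out. This was plvapa without DMSO 1 (1.32% of all genes in the higher direction). It was lyve1a without TCDD 4 or DMSO 4, where its groups met (0.665% and 0.903% in the lower direction). Without DMSO 1 and TCDD 2 it was 1, plvapa, while 387 of 19260 genes did not overlap in the higher direction. Over all genes, the 478 at an unadjusted p under 0.05 became 289 to 1280 with single arrays left out, 1400 with array weights, 1190 without DMSO 1 and TCDD 2, and 96 among genes above the median. Genes past the adjusted threshold numbered 0 to 1 with single arrays left out and 1 without DMSO 1 and TCDD 2, kcnh1a both times. The cause was not tested. The replicate numbers did not pair the arrays (correlations of same-numbered deviations of -0.58 to 0.29). With the replicate block 0 genes passed, 398 had an unadjusted p under 0.05, and plvapa remained at 0.75.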

Other observations

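The level of plvapa relative to other endothelial genes was computed within each array, a measure chosen after the values were seen and given with no test. plvapa minus the mean of cdh5, kdrl and tie1, on the log2 scale, was 1.31, 1.29, 1.075, 1.084 and 1.497 in TCDD 1 to 5 and 1.53, 0.59, 0.28, 0.48 and 0.26 in DMSO 1 to 5. The TCDD arrays lay above DMSO 2 to 5 and below DMSO 1, as for plvapa itself. The mean of cdh5, kdrl and tie1 was 7.63 to 8.22 in TCDD, and 8.54 in DMSO 1 and 7.56 to 7.80 in DMSO 2 to 5, so that those ranges overlapped. With DMSO 1 included, plvapa minus that mean ran from 0.26 to 1.53 in DMSO, a range that held all TCDD arrays. plvapa minus plvapb, also chosen after the values were seen, was 1.11 to 2.22 in TCDD. It was 0.56 to 1.41 in DMSO 2 to 5, which overlapped the TCDD range, and 2.93 in DMSO 1. Whether plvapa changed unlike cdh5, kdrl, tie1 or plvapb was not tested, and a difference within an array does not show which gene changed.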
